A study of Mus musculus with 24 samples.

Results

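Keratin 18 and keratin 8, claudins 3, 4, 6 and 7 and E-cadherin were followed across 4 sorted cell fractions of mouse embryoid bodies, with and without induction of active Notch1. They were taken by array symbol as Krt1-18, Krt2-8, Cldn3, Cldn4, Cldn6, Cldn7 and Cdh1, where the first 2 are the array's names for Krt18 and Krt8. These are 7 of the 18120 gene symbols on the array, each with 1 probe, and 6 of the 7 passed the filter on detection. Cldn3 did not pass it.

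Keratins 8 and 18 pair with each other to form the intermediate filaments of simple epithelia, and they are among the first cytoplasmic filaments made in the mouse embryo. Claudins are membrane proteins whose strands seal the tight junction between neighbouring cells, and E-cadherin is the calcium-dependent adhesion molecule of the adherens junction below it. E-cadherin and claudin 6 are also made by undifferentiated embryonic stem cells, whereas blood and endothelial cells arise from mesoderm, which gives up E-cadherin as it forms. Endothelial cells instead use VE-cadherin (Cdh5) and claudin 5 (Cldn5) at their junctions.

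Embryoid bodies are clumps of embryonic stem cells left to differentiate. All 8 groups came from Ainv15 embryonic stem cells in which doxycycline switches on ICN1, the cleaved, active piece of the Notch1 receptor. ICN1 was induced between day 3 and day 5 in the induced groups and was not induced in the non-induced groups, and both were sorted on day 6. The groups were induced CD41 sp, VE sp, DP and DN cells and non-induced CD41 sp, VE sp, DP and DN cells, with 3 replicates each, or 24 Illumina arrays. The labels do not spell out the fraction names, and they do not say whether replicates came from separate cultures, so p-values rest on a spread among samples that could be in part technical. No group had doxycycline without ICN1, so the 2 cannot be told apart, and every group came from 1 cell line.

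The mean raw intensity of an array lay between 165 and 656, and detection (p below 0.05) covered 41.8% to 51.3% of its 25697 probes. The lowest of both was the non-induced VE sp array of replicate 3. In the arrays of replicate number 2 the induced groups were dimmer, with mean raw intensities of 198 to 314 on induced and 425 to 474 on non-induced arrays. Levels below are log2 normalized intensities. An offset of 16 added before the log2 sets their floor, and the number of arrays limits their precision. Itga2b, which encodes CD41, averaged 10.97 ± 0.21 in induced CD41 sp, 9.37 ± 0.19 in induced VE sp, 11.22 ± 0.38 in induced DP and 7.88 ± 0.34 in induced DN cells (SD, n = 3 each). Cdh5 was detected on every VE sp and DP array and on no CD41 sp or DN array. Itga2b was detected on all 24 arrays, and was highest in the CD41 sp and DP cells. Notch1 itself averaged 8.02 ± 0.26 in induced and 6.94 ± 0.45 in non-induced DN cells (SD, n = 3 each), and its probe may also read the transgene. Its mean was also higher with induction in CD41 sp cells. In VE sp cells it averaged 10.44 ± 0.41 with and 10.24 ± 0.61 without induction. In DP cells it was lower with induction, at 8.75 ± 0.23 against 9.05 ± 0.24 (SD, n = 3 each). The Notch1 probe thus did not mark induction in every fraction.

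The promoters of Krt18, Krt8, Cldn4 and Cldn6 are shown because these 4 genes were all high on the same 6 DN arrays. Each is the run of 250 bases before to 50 bases after the RefSeq start of the gene in build GRCm38.p6, written 5′ to 3′ along the gene, with the E-box CAGGTG or its reverse complement CACCTG in capitals. Krt18 lies at chr15:102027966-102028265, plus strand, Krt8 at chr15:102004293-102004592, minus strand, Cldn4 at chr5:134946885-134947184, minus strand, and Cldn6 at chr17:23679115-23679414, plus strand.
Krt18: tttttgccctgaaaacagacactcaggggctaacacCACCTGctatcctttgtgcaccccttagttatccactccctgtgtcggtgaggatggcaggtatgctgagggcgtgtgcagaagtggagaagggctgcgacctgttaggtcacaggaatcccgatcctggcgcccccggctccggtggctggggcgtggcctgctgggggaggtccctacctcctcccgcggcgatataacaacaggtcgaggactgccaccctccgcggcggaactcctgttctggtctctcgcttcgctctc
Krt8: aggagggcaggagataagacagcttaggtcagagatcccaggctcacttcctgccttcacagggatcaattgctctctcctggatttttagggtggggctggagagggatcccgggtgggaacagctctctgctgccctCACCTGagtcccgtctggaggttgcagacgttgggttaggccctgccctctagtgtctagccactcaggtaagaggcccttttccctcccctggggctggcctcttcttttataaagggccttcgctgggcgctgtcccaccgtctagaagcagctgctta
Cldn4: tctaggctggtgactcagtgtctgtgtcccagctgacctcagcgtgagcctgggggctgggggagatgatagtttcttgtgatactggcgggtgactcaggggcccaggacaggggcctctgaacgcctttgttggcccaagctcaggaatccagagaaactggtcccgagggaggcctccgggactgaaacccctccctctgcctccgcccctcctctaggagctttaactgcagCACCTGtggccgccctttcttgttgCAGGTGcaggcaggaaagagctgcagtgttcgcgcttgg
Cldn6: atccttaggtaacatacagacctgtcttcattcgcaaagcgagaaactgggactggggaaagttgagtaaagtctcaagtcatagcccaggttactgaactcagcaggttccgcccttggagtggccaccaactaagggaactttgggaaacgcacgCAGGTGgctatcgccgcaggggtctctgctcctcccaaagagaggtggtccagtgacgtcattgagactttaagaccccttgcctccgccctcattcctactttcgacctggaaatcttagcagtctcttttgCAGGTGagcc

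The CAGGTG E-box is the sequence bound by repressors of the Snail and Zeb families, which are known to silence Cdh1. It was found, counting both strands, in 6 of the 7 promoters that RefSeq lists for 6 of the genes, and in 20.2% of all 32851 promoters of the same length. The exception was the first of the 2 Cldn7 promoters. The matches stood at position -214 from the start in Krt18, at -111 in Krt8, at -14 and 12 in Cldn4 and at -93 and 41 in Cldn6. The GC box GGGCGG occurred in 4 of the 7 promoters and in 35.7% of all promoters. The TATA box TATAAA occurred in 1 of the 7, that of Krt8, where its matches on the 2 strands overlap, and in 13.6% of all promoters. The grainyhead motif AACCGGTT occurred in none of the 7 and in 0.146% of all promoters. A match is a description of the letters only, and Cdh1 has no entry in the promoter table. In the gene order of the same build Krt8 is next to Krt18, Cldn4 next to Cldn3, Cldn6 next to Cldn9 and Cdh1 next to Cdh3.

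Krt1-18, Krt2-8, Cldn4, Cldn6 and Cdh1 were high in DN cells, in both conditions, and low in the other 3 fractions. Krt1-18, the type I keratin of the pair, measured 5.90, 5.28 and 6.04 on the induced and 6.04, 5.44 and 5.81 on the non-induced CD41 sp arrays. The values were 5.45, 5.50 and 6.78 on the induced and 5.63, 5.62 and 6.30 on the non-induced VE sp arrays, and 5.77, 5.32 and 5.67 on the induced and 5.69, 4.62 and 4.61 on the non-induced DP arrays. Its levels in DN cells were 9.63, 8.71 and 9.87 on the induced and 10.15, 9.82 and 10.24 on the non-induced arrays. The lowest DN array thus lay 1.93 above the highest of the 18 other arrays. Krt1-18 was still detected on 16 of those 18 arrays, and the 2 on which it was not were both non-induced DP arrays.

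Krt2-8, the type II partner, was detected on all 24 arrays. It measured 7.58, 7.07 and 7.52 on the induced and 7.64, 7.31 and 6.74 on the non-induced CD41 sp arrays. In VE sp cells it measured 8.26, 7.35 and 8.80 on the induced and 7.80, 7.46 and 7.13 on the non-induced VE sp arrays. In DP cells the values were 7.51, 6.21 and 6.63 on the induced and 7.18, 6.17 and 5.87 on the non-induced DP arrays. These overlapped among the 3 fractions, with the highest array in VE sp and the lowest in DP cells. The DN values, 11.83, 10.98 and 11.30 on the induced and 11.91, 11.31 and 11.23 on the non-induced arrays, began 2.18 above the highest other array.

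Among the claudins, Cldn4, a sealing claudin of many epithelia, measured 4.92, 4.58 and 4.80 on the induced and 4.81, 4.69 and 4.65 on the non-induced CD41 sp arrays. It measured 5.02, 4.77 and 5.25 on the induced and 4.93, 4.87 and 5.95 on the non-induced VE sp arrays, and 5.33, 4.78 and 5.04 on the induced and 4.94, 4.52 and 4.54 on the non-induced DP arrays. It was detected on 5 of 6 VE sp arrays but on only 1 of 6 CD41 sp and 2 of 6 DP arrays, so most of these values are near the level of a probe without signal. In DN cells Cldn4 measured 8.40, 7.79 and 7.89 on the induced and 8.29, 7.13 and 8.01 on the non-induced arrays, all of them detected. The lowest of these, replicate 2 of the non-induced group, was still 1.17 above the highest other array. That other array was non-induced VE sp replicate 3, which had the lowest mean raw intensity of the 24 arrays.

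Cldn6, the claudin best known from embryonic epithelia and stem cells, measured 5.29, 4.75 and 5.47 on the induced and 5.66, 4.53 and 5.64 on the non-induced CD41 sp arrays. It measured 4.74, 4.68 and 5.15 on the induced and 5.09, 4.88 and 4.62 on the non-induced VE sp arrays, and 5.22, 4.47 and 4.60 on the induced and 5.61, 4.70 and 4.59 on the non-induced DP arrays. It was detected on 9 of these 18 arrays, with no fraction detected throughout. Its DN levels were 9.28, 7.80 and 9.36 on the induced and 9.84, 8.37 and 10.34 on the non-induced arrays. In both conditions the DN array of replicate number 2 was the lowest, and the lowest DN array lay 2.14 above every other.

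Cldn7, a claudin also found on the lateral membranes of epithelia, behaved unlike the rest. It measured 5.50, 5.50 and 5.48 on the induced and 5.64, 5.54 and 5.85 on the non-induced CD41 sp arrays, all detected. In VE sp cells it measured 4.97, 4.85 and 5.14 on the induced and 5.23, 5.17 and 4.55 on the non-induced VE sp arrays. The DP values were 4.68, 5.05 and 5.20 on the induced and 5.19, 5.24 and 4.77 on the non-induced DP arrays. The CD41 sp arrays were therefore above all VE sp and DP arrays, but Cldn7 was detected on only 4 of 6 VE sp and 3 of 6 DP arrays. The DN values, 5.74, 5.74 and 5.93 on the induced and 5.92, 6.01 and 6.46 on the non-induced arrays, overlapped those of CD41 sp cells, since the lowest DN array was 0.10 below the highest CD41 sp array.

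Cldn3, the neighbour of Cldn4, was detected on 1 of the 24 arrays, the induced DN array of replicate 1. Its level there was 5.02, and the other DN arrays lay at 4.51 to 4.83. The 18 arrays of the other fractions lay at 4.31 to 4.51 without being detected. Fitted without the filter, Cldn3 had adjusted p-values between 0.000752 and 0.0621 (limma, over 18120 symbols) in the 6 comparisons of a fraction with DN, and no fold change is given because the probe was not detected.

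E-cadherin (Cdh1) measured 5.33, 4.91 and 5.45 on the induced and 4.88, 4.91 and 5.32 on the non-induced CD41 sp arrays. It measured 5.06, 4.72 and 5.46 on the induced and 5.06, 5.04 and 4.54 on the non-induced VE sp arrays, and 5.23, 4.75 and 4.90 on the induced and 5.04, 4.69 and 5.32 on the non-induced DP arrays. Detection was partial in every one of these 6 groups, 10 of 18 arrays in all. In DN cells Cdh1 measured 8.80, 8.58 and 8.35 on the induced and 8.32, 7.91 and 8.65 on the non-induced arrays. Its lowest DN array lay 2.45 above the highest other array.

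**Figure D1:**
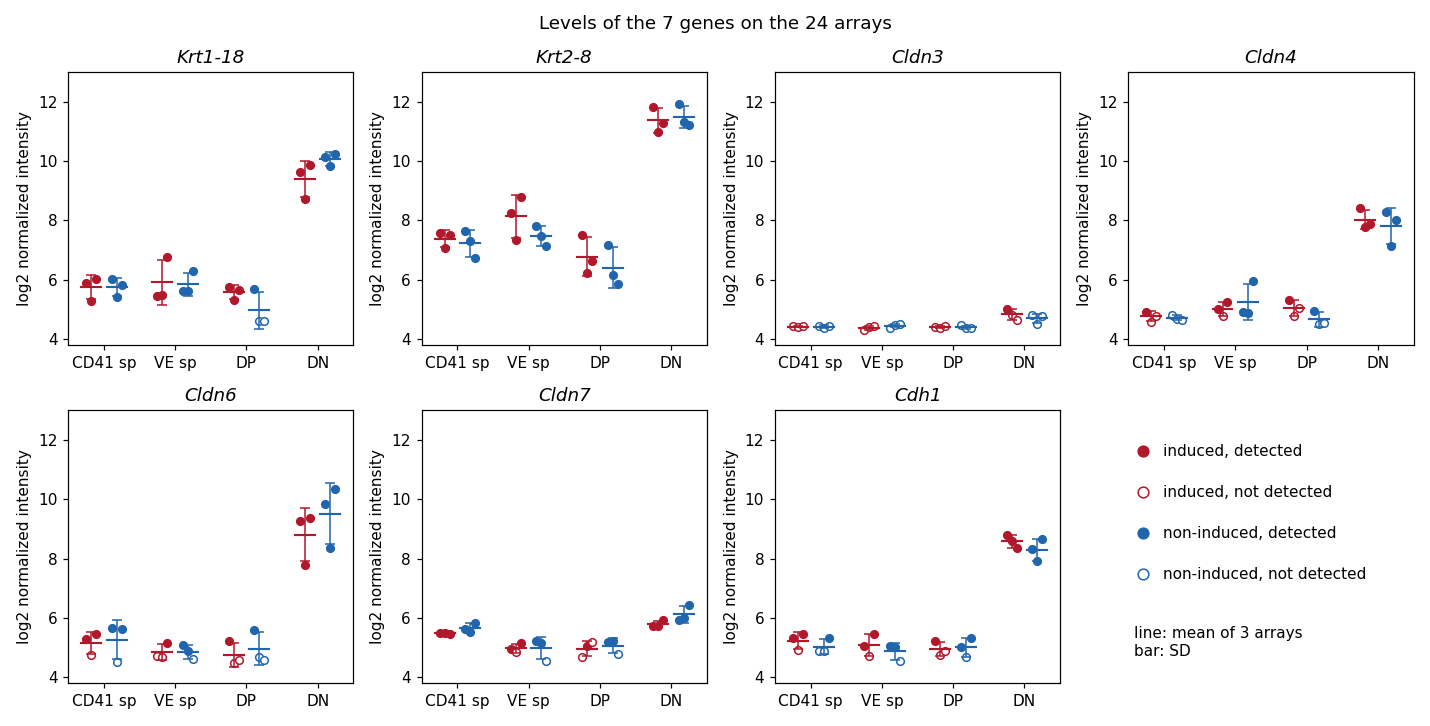
Log2 normalized intensity of each gene (vertical axis) on each array by fraction (horizontal axis), with induced arrays in red to the left of non-induced arrays in blue; open points were not detected, the line is the mean of 3 arrays and the bar the SD. The 6 DN arrays lie above all 18 others by at least 1.17 for Krt1-18, Krt2-8, Cldn4, Cldn6 and Cdh1, Cldn7 overlaps, and Cldn3 was detected on 1 array. The share of all tested genes that separate in this way is not given, so the separation describes these genes only.

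Each fraction was then compared with the DN fraction of its own condition. Each change is a difference of log2 means from a limma fit over all 9591 tested symbols, and calls were made below an adjusted p (Benjamini-Hochberg) of 0.05. In induced CD41 sp cells 5 of the 6 tested genes were lower than in induced DN cells and none higher, where 9.62% of all tested genes were lower and 5.86% higher. The same count of 5 of 6 held in non-induced CD41 sp cells, where 8.62% were lower and 7% higher. All 6 were lower in induced VE sp cells, beside 13.2% of all genes lower and 13.3% higher, and in non-induced VE sp cells, beside 12.2% lower and 12.4% higher. All 6 were also lower in induced DP cells, beside 10.2% lower and 10.3% higher, and in non-induced DP cells, beside 10.9% lower and 11.1% higher. The median change of the 6 genes lay between -3.36 and -3.91 over the 6 comparisons, against medians of -0.09 to 0.02 over all tested genes.

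These counts, and the gaps between DN and the other arrays given above, describe the genes and do not support a wider statement. Cldn6 and Cdh1 were detected on all 3 arrays of the DN groups alone, and so passed the filter only through the groups in which they are high. Cldn4 passed through the DN groups and non-induced VE sp, and Cldn7 through the DN and CD41 sp groups. The 3 comparisons of each condition also share their 3 DN arrays. Fewer cells that express a gene and less of its RNA per cell cannot be told apart in sorted bulk samples.

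Both keratins were lower in every fraction than in DN cells. Krt1-18 changed by -3.66 in induced and -4.31 in non-induced CD41 sp cells, -3.49 and -4.22 in induced and non-induced VE sp cells, and -3.81 and -5.10 in induced and non-induced DP cells, with a standard error of 0.36 throughout. This corresponds to levels 11.2-fold to 34.2-fold lower than in DN cells, and the largest adjusted p of the 6 was 1.96e-07. Krt2-8 changed by -3.98 in induced and -4.25 in non-induced CD41 sp cells, -3.23 and -4.02 in induced and non-induced VE sp cells, and -4.58 and -5.08 in induced and non-induced DP cells, with a standard error of 0.39 and a largest adjusted p of 1.54e-06. For both keratins the lowest mean outside DN was that of non-induced DP cells. Krt1-18 in those cells was detected on 1 of 3 arrays, so this mean is partly a floor.

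Among claudins, Cldn6 changed by -3.64 in induced and -4.24 in non-induced CD41 sp cells, -3.95 and -4.66 in induced and non-induced VE sp cells, and -4.05 and -4.55 in induced and non-induced DP cells, with a standard error of 0.45. Its largest adjusted p was 3.64e-06. Cldn4 changed by -3.26 in induced and -3.10 in non-induced CD41 sp cells, -3.01 and -2.56 in induced and non-induced VE sp cells, and -2.98 and -3.15 in induced and non-induced DP cells, with a standard error of 0.29 and a largest adjusted p of 5.98e-07. In non-induced CD41 sp cells Cldn4 was not detected on any array, and its level there was at least 6.83-fold lower than in non-induced DN cells. Cldn7 had the smallest changes, -0.31 in induced and -0.45 in non-induced CD41 sp cells, -0.82 and -1.15 in induced and non-induced VE sp cells, and -0.83 and -1.06 in induced and non-induced DP cells, with a standard error of 0.20. Its adjusted p was 0.417 in induced and 0.165 in non-induced CD41 sp cells, where it was not called, and at most 0.00445 in the other 4 comparisons. With the authors' processed values these 4 Cldn7 calls were lost, at adjusted p of 0.0817 to 0.225.

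Cdh1 changed by -3.35 in induced and -3.26 in non-induced CD41 sp cells, -3.50 and -3.42 in induced and non-induced VE sp cells, and -3.62 and -3.28 in induced and non-induced DP cells, with a standard error of 0.25. The largest adjusted p was 4.38e-09, and the 6 intervals all overlap. Cdh1 was detected on 1 or 2 of 3 arrays in each of these 6 groups, so their means are partly a floor. The same holds for Cldn6, for Cldn4 outside non-induced VE sp, and for Cldn7 in VE sp and DP cells. All 3 replicate-numbered differences were negative for each of the 6 genes in each of the 6 comparisons. The share of all tested genes with such agreement is not given, and comparisons of the same condition share their DN arrays. The agreement is therefore a description only.

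**Figure D2:**
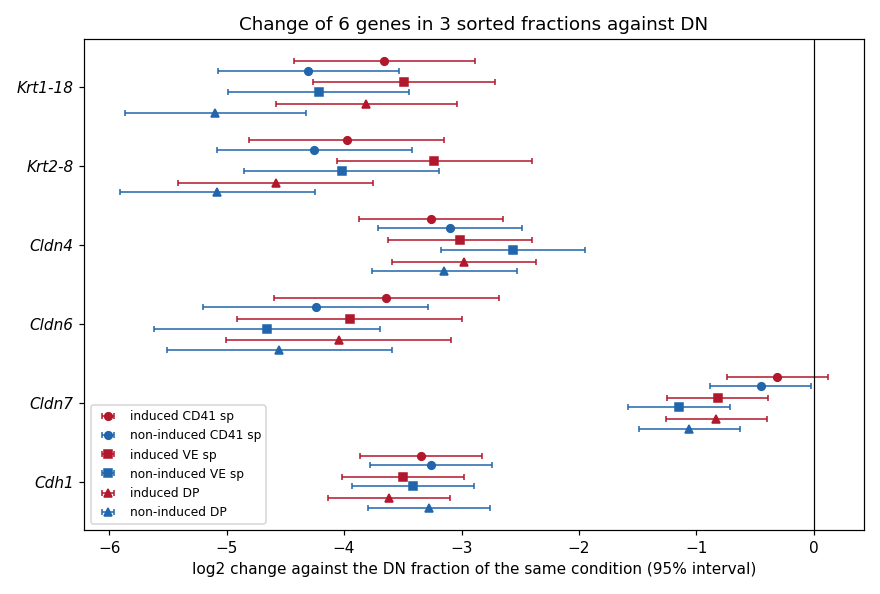
Log2 change of the 6 tested genes (rows) in CD41 sp (circles), VE sp (squares) and DP cells (triangles) against the DN cells of the same condition, induced in red and non-induced in blue; bars are 95% intervals and the vertical line marks no change. Krt1-18, Krt2-8, Cldn4, Cldn6 and Cdh1 lie between -5.10 and -2.56, whereas Cldn7 lies between -1.15 and -0.31.

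The CD41 sp, VE sp and DP fractions were compared with one another, as means over both conditions. Cldn7 was lower in VE sp than in CD41 sp cells, with means of 4.98 ± 0.26 and 5.59 ± 0.14 (SD, n = 6 each), a change of -0.60 ± 0.14 (SE, limma adjusted p = 0.00159). It was the only gene of the 6 called there, where 24% of all tested genes were lower and 21.6% higher in VE sp cells. Cldn7 was also lower in DP than in CD41 sp cells, at 5.02 ± 0.24 against 5.59 ± 0.14, a change of -0.56 ± 0.14 (SE, limma adjusted p = 0.00609). Again it was the only one called, beside 9.25% of genes lower and 12% higher in DP cells. Cldn7 in DP and VE sp cells differed by 0.038, with a 95% interval of -0.27 to 0.34. Its order among these fractions was thus CD41 sp above VE sp and DP, which did not differ beyond their spread.

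Krt2-8 followed another order, with DP lowest. It was lower in DP than in VE sp cells, at 6.59 ± 0.64 against 7.80 ± 0.63 (SD, n = 6 each), a change of -1.20 ± 0.28 (SE, limma adjusted p = 0.00236). It was the 1 gene of 6 called in that comparison, in which 12.8% of genes were lower and 10.7% higher in DP cells. With the replicate number as a block Krt2-8 was also called higher in VE sp than in CD41 sp cells (0.49, adjusted p = 0.0357 against 0.16 without the block) and lower in DP than in CD41 sp cells (-0.72, adjusted p = 0.00641 against 0.074). The block added 2 more calls, Cldn4 higher in VE sp than in CD41 sp cells (0.39, adjusted p = 0.0404 against 0.129) and Krt1-18 lower in DP than in VE sp cells (-0.60, adjusted p = 0.0168 against 0.102). The counts thus became 3 of 6 for VE sp against CD41 sp, and 2 of 6 each for DP against CD41 sp and for DP against VE sp. With the block 62.4%, 38.3% and 41.7% of all tested genes were called in these 3 comparisons, in either direction. With median scaling or with the authors' processed values none of the 6 was called in any of the 3 comparisons. Without all arrays of replicate 1 the Cldn7 call for DP against CD41 sp was lost (adjusted p = 0.127), and without those of replicate 3 the Krt2-8 call for DP against VE sp was lost (adjusted p = 0.0766).

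Cldn6 and Cdh1 showed no such order. The differences of Cldn6 among the 3 fractions lay between -0.36 and 0.0057, and those of Cdh1 between -0.15 and 0.0095. The 95% interval for Cdh1 in VE sp against CD41 sp cells was -0.52 to 0.22. Both genes were detected on 9 and 10 of these 18 arrays, so differences among them lie near the floor of the measurement.

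Induction of ICN1 between day 3 and day 5 changed none of the 6 genes by the test. In CD41 sp cells 0 of 6 were called, beside 0.0938% of all tested genes. In VE sp cells 0 of 6 were called, beside 1.14%, and in DP cells 0 of 6, beside 0.136%. In DN cells, where the genes are high, the count was 0 of 6 beside 0.928%. On average over the 4 fractions it was 0 of 6 beside 2.97%. None of the 6 genes had an unadjusted p under 0.05 in any of these limma comparisons, which were fitted without the replicate block. With the block the counts called by adjusted p were also 0. Beside them stood 0.907% of all tested genes in CD41 sp, 4.36% in VE sp, 1.62% in DP and 4.11% in DN cells, and 12.9% on average.

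In DN cells each change is given with its 95% interval from the fit without the replicate block. With the block the standard error fell from 0.36 to 0.27 for Krt1-18 and from 0.45 to 0.32 for Cldn6. No intervals were computed with the block, and those of Krt1-18 and Cldn6 may then exclude 0. Their limma adjusted p-values with the block were 0.167 and 0.218. Krt1-18 averaged 9.40 ± 0.61 in induced and 10.07 ± 0.22 in non-induced DN cells (SD, n = 3 each), a change of -0.67 with a 95% interval of -1.44 to 0.10 (limma adjusted p = 0.85). Its differences within replicate numbers 1, 2 and 3 were -0.52, -1.11 and -0.37. All 3 were negative, and the authors' processed values with the replicate block gave -0.63 with an adjusted p of 0.0447, the 1 setting in which a gene of the 6 was called on induction. Krt2-8 changed by -0.12 there, with an interval of -0.95 to 0.71. Cldn6 changed by -0.71 (-1.67 to 0.25), with differences of -0.56, -0.58 and -0.98. Cldn7 changed by -0.32 (-0.76 to 0.11), also negative in all 3. Cldn4 changed by 0.21 (-0.40 to 0.83) and Cdh1 by 0.28 (-0.24 to 0.80).

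In the same DN cells 4 of 14 tested endoderm markers were lower with induction than without (6 with the replicate block) and none higher. Of all tested genes 0.928% were called in either direction without the block, and 4.11% with it. Without the block the other 10 markers did not pass the test. Ttr, the thyroid hormone and retinol transport protein made by visceral endoderm and liver, averaged 7.23 ± 0.53 in induced and 10.26 ± 0.91 in non-induced DN cells (SD, n = 3 each), a change of -3.04 (limma adjusted p = 0.00154). Cdh3 (P-cadherin), the chromosomal neighbour of Cdh1, averaged 5.98 ± 0.45 in induced and 6.88 ± 0.41 in non-induced DN cells, a change of -0.90 ± 0.20 (SE, limma adjusted p = 0.0303). The Cdh3 call was lost without background correction, with median scaling, with the authors' processed values, with only the groups compared (adjusted p = 0.0557 to 1.00) and without the arrays of replicate 1, 2 or 3 (0.346, 0.794 and 0.0916). The Ttr call was lost with only the groups compared (0.0831) and without replicate 1 (0.220). Whether Cdh3 and Cdh1 responded differently was not tested.

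In the other fractions the largest changes on induction were 0.67 for Krt2-8 in VE sp cells, with an interval of -0.16 to 1.50, and 0.62 for Krt1-18 in DP cells, with an interval of -0.15 to 1.39. The Krt2-8 value rests on replicate 3, whose difference was 1.66, against 0.46 and -0.11 in replicates 1 and 2. The non-induced VE sp array of replicate 3 had the lowest mean raw intensity of all arrays. Averaged over the 4 fractions, the changes were -0.0027 for Krt1-18, 0.27 for Krt2-8, 0.10 for Cldn4, -0.25 for Cldn6, -0.15 for Cldn7 and 0.16 for Cdh1. The smallest adjusted p among these was 0.633, for Cldn7. An F test of whether the response differed among the 4 fractions called 0 of the 6 genes, beside 0.146% of all tested genes.

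**Figure D3:**
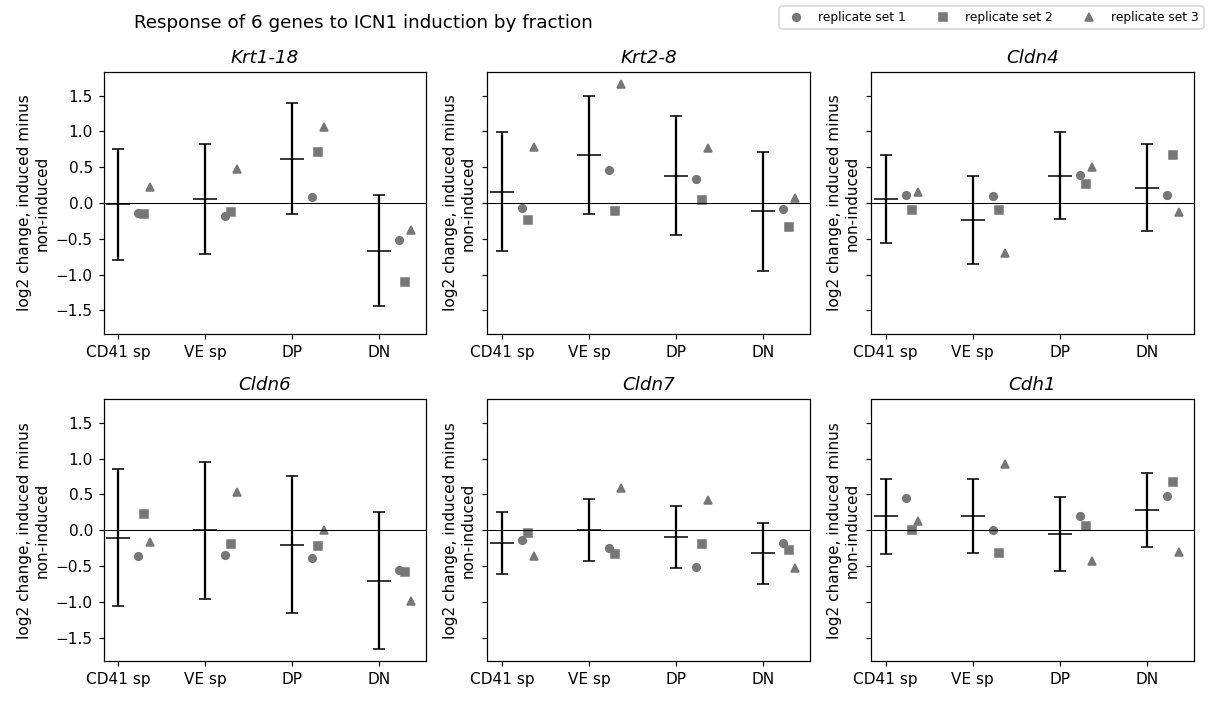
Log2 change on ICN1 induction (vertical axis) of the 6 tested genes in each fraction, as the mean with its 95% interval in black and the differences within replicate sets 1, 2 and 3 as grey points. Every interval, from the fit without the replicate block, includes 0.

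How closely the genes followed each other was described over the arrays, which share their fraction, condition and replicate number. Over all 24 arrays Pearson's r between pairs of Krt1-18, Krt2-8, Cldn4, Cldn6 and Cdh1 lay between 0.93 and 0.97, and between these and Cldn7 it lay between 0.62 and 0.79. Over the 18 arrays without DN the highest r was that of the 2 keratins, 0.72, and the lowest that of Cldn4 with Cldn7, -0.56. Over the 6 DN arrays the highest was 0.86, for Krt1-18 with Cldn6, and the lowest -0.23, for Krt2-8 with Cldn7. With few arrays and values near the floor these are descriptions only.

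By the same measure, the genes whose levels over the 24 arrays were most like the mean of the 6 standardised genes included Kcnk1 (r = 0.983), Sertad4 (0.978), Actc1 (0.975), Rbm35a (0.975), Hoxc6 (0.974), Cdx2 (0.972) and Sp5 (0.968). Kcnk1, a two-pore potassium channel gene, averaged 4.78 over the 18 CD41 sp, VE sp and DP arrays and 7.42 over the 6 DN arrays. Taken one by one, the most alike was Kcnk1 for Krt1-18 (0.978) and for Cdh1 (0.987), Pdgfra for Krt2-8 (0.965), Sp5 for Cldn4 (0.978) and Fabp3 for Cldn7 (0.912). Others close to them were Spin2 (0.970) and Car4 (0.970) for Krt1-18, Ssb4 (0.962) and Gp38 (0.962) for Krt2-8, Kcnk1 (0.974) and Tmprss2 (0.968) for Cldn4, Bmp7 (0.978) and Tmprss2 (0.977) for Cldn6, Cdc42ep3 (0.900) and Elavl2 (0.890) for Cldn7, and Rbm35a (0.982) and Acta1 (0.978) for Cdh1. Pdgfra, a mesenchymal receptor, and Actc1 and Acta1, muscle actins, thus stand beside epithelial genes such as Rbm35a and Tmprss2 in this list.

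Other genes of epithelia and junctions were followed in the same comparisons, from lists chosen by function. Krt1-19, Cxadr, Cdh3, Ddr1, Tmprss2, Rbm35a and Tcfap2c were detected on all 3 arrays of DN groups alone and so passed the filter only where they are high. Their lower values, and the list counts that hold them, are therefore descriptions. In the comparisons with DN 8.62% to 13.2% of all tested genes were lower and 5.86% to 13.3% higher. With the replicate block 28.6% to 46.3% of all tested genes were called in either direction. A list count near these shares, here or in the lists that follow, is no result about the list. Of 18 other keratins on the array 5 were tested, and Krt1-19 was the 1 lower in all 6 comparisons with DN, with changes of -3.00 to -2.40 (largest adjusted p = 9.04e-06). Krt1-19 (keratin 19), a further simple-epithelial keratin, averaged 4.46 ± 0.10 in induced CD41 sp and 6.98 ± 0.93 in induced DN cells (SD, n = 3 each), and was detected on 1 of the 18 arrays outside DN, a non-induced VE sp array. With the replicate block 3 of the 5 were lower in non-induced CD41 sp and in non-induced VE sp cells and 2 in non-induced DP cells.

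Of 16 other claudins on the array 7 were tested, of which 0 to 3 were lower and 0 or 1 higher in a comparison with DN (2 or 3 lower with the replicate block). Cldn5, the endothelial claudin, was higher in VE sp cells by 7.28 in induced and 7.56 in non-induced cells, and in DP cells by 3.27 and 4.27 (limma adjusted p at most 4.25e-06). In CD41 sp cells its changes were -0.29 in induced and -0.45 in non-induced cells, not called. Cldn11, a claudin of myelin and Sertoli cells, was lower in 5 of the 6 comparisons, with changes of -1.54 to -2.51, and was not called in induced VE sp cells (-0.95, adjusted p = 0.0669 without and 0.0078 with the replicate block). The calls in induced CD41 sp and DP cells were lost with the authors' processed values (0.104 and 0.0568), without replicate 1 (0.232 and 0.118) and without replicate 3 (0.0664 and 0.0521), and the Cldn11 call in non-induced VE sp cells was lost without replicate 1 (0.0532). Cldn9, named because it is the neighbour of Cldn6 and after its values were seen, was detected on all 24 arrays and changed by -0.17 to 0.27, not called in any of the 6. Cldn6, its neighbour, was called in all 6.

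Of 12 tested tight junction and polarity genes, those lower and those higher than in DN cells differed by fraction. In CD41 sp cells 4 were lower and 1 higher in each condition, whereas in VE sp cells 2 were lower and 4 higher with induction and 1 lower and 5 higher without. With the replicate block 4 were lower in each VE sp comparison, beside 5 higher with induction and 6 higher without. Cxadr, the coxsackievirus and adenovirus receptor of epithelial junctions, was lower in all 6 comparisons, with changes of -3.32 to -2.35 (largest adjusted p = 0.000495), a call lost in non-induced CD41 sp cells without replicate 1 (0.0704). Its other probes, which did not pass the filter, averaged -0.47 and -0.20 in induced and -0.63 and -0.13 in non-induced cells over the 3 fractions against DN. F11r (junctional adhesion molecule A), which blood and endothelial cells also carry, was higher in all 6, by 0.89 to 2.23 (largest adjusted p = 0.00696), although the call in induced CD41 sp cells was lost with median scaling, with the authors' processed values and without replicate 1 or 2 (0.0842 and 0.179). Tjp1 (ZO-1), the scaffold under tight junctions, was higher in VE sp cells by 1.23 in induced and 1.04 in non-induced cells, and lower in CD41 sp cells, with changes of -1.41 and -1.22 (limma adjusted p at most 0.0126). With median scaling Tjp1 was not called in either VE sp comparison or in non-induced CD41 sp cells, and its calls in non-induced CD41 sp and VE sp cells were also lost with the authors' processed values and without replicate 3.

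Of 9 tested adherens junction and desmosome genes, 2 to 4 were lower and 0 to 2 higher in a comparison, or 2 to 6 lower and 1 to 4 higher with the replicate block. Cdh3 and Pkp2 were lower in all 6 comparisons. Cdh3 was not detected on any CD41 sp, VE sp or DP array, and its level was at least 2.01-fold to 3.79-fold lower there than in DN cells (largest adjusted p = 9.70e-06). A second Cdh3 probe that passed the filter averaged -0.62 in induced and -1.57 in non-induced cells over the 3 fractions against DN. Pkp2 (plakophilin 2), a desmosomal plaque protein, changed by -2.10 to -1.31 (largest adjusted p = 0.00032). Pvrl2 (nectin 2) was lower in CD41 sp cells, with changes of -2.66 in induced and -2.32 in non-induced cells (limma adjusted p at most 1.23e-05), whereas in VE sp cells it was higher with induction (1.05, adjusted p = 0.0167) and not called without (0.69, 0.127, and 0.0117 with the block). The call in induced VE sp cells was lost with median scaling, with the authors' processed values and without replicate 1 or 2 (0.0584 and 0.180). Of 9 tested epithelial surface proteins, 7 were lower in each VE sp and DP comparison, while 3 were lower in induced and 6 in non-induced CD41 sp cells (6 in each with the replicate block). In each CD41 sp comparison 1 was higher, and with the block 1 was also higher in induced VE sp cells. Tmprss2, a membrane serine protease, was not detected on any of the 18 arrays outside DN, and it was at least 4.26-fold to 5.89-fold lower there. Ddr1, a collagen receptor of epithelia, changed by -1.85 to -1.60 (largest adjusted p = 0.000207), but a second Ddr1 probe averaged -0.03 in induced and 0.21 in non-induced cells over the same 3 fractions against DN.

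Regulators of the epithelial state were split. Of 7 tested activators and splicing factors, Rbm35a (Esrp1), which sets epithelial splicing, was lower in all 6 comparisons, with changes of -3.31 to -3.02 (largest adjusted p = 1.44e-09), and so was Tcfap2c (AP-2 gamma), with changes of -3.43 to -2.64 (largest adjusted p = 2.01e-05). Of 2 further Tcfap2c probes that passed the filter, 1 averaged -2.01 in induced and -2.14 in non-induced cells over the 3 fractions against DN, and the other -0.66 and -0.35. Rbm35a and Tcfap2c were the 2 lower ones in each of the 6, and with the replicate block 3 or 4 were lower. In each VE sp comparison 1 of the 7 was higher, and with the block 1 was also higher in non-induced DP cells. Of 10 tested repressors of Cdh1 and mesenchymal genes, 5 were lower and none higher in each CD41 sp comparison, and 6 lower and 2 higher with the replicate block. In VE sp cells 2 were lower and 2 higher with induction (4 and 4 with the block) and 1 lower and 3 higher without (2 and 3). In DP cells 4 were lower and 1 higher with induction (4 and 2) and 3 lower and 1 higher without (3 and 3). Twist2 was lower in all 6, with changes of -4.06 to -2.25 (largest adjusted p = 1.45e-05). Snai1 was lower in CD41 sp cells, with changes of -1.74 in induced and -1.54 in non-induced cells, and in VE sp cells its changes were -0.54 and -0.15, not called (the induced one had an adjusted p of 0.0445 with the block). With the authors' processed values the Snai1 calls in CD41 sp cells were lost. Zfhx1a (Zeb1) was higher in VE sp cells, by 1.33 and 1.60, and lower in CD41 sp cells, with changes of -1.08 and -0.94 (limma adjusted p at most 0.0183), but with median scaling or the authors' processed values none of these 4 was called, and the CD41 sp calls were lost without replicate 1 or 2 (0.141 to 0.217). Vim (vimentin), the filament protein of mesenchymal cells, was higher in VE sp cells by 2.92 and 2.98 (adjusted p at most 6.88e-07). It was also called lower in non-induced CD41 sp and higher in induced DP cells. Both calls were lost with median scaling (-0.99 and 1.30, limma adjusted p = 0.323 and 0.101) and with the authors' processed values (0.249 and 0.0559). In induced CD41 sp cells Vim was called lower only in some alternatives, such as the replicate block (-0.98, adjusted p = 0.00678).

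**Figure D4:**
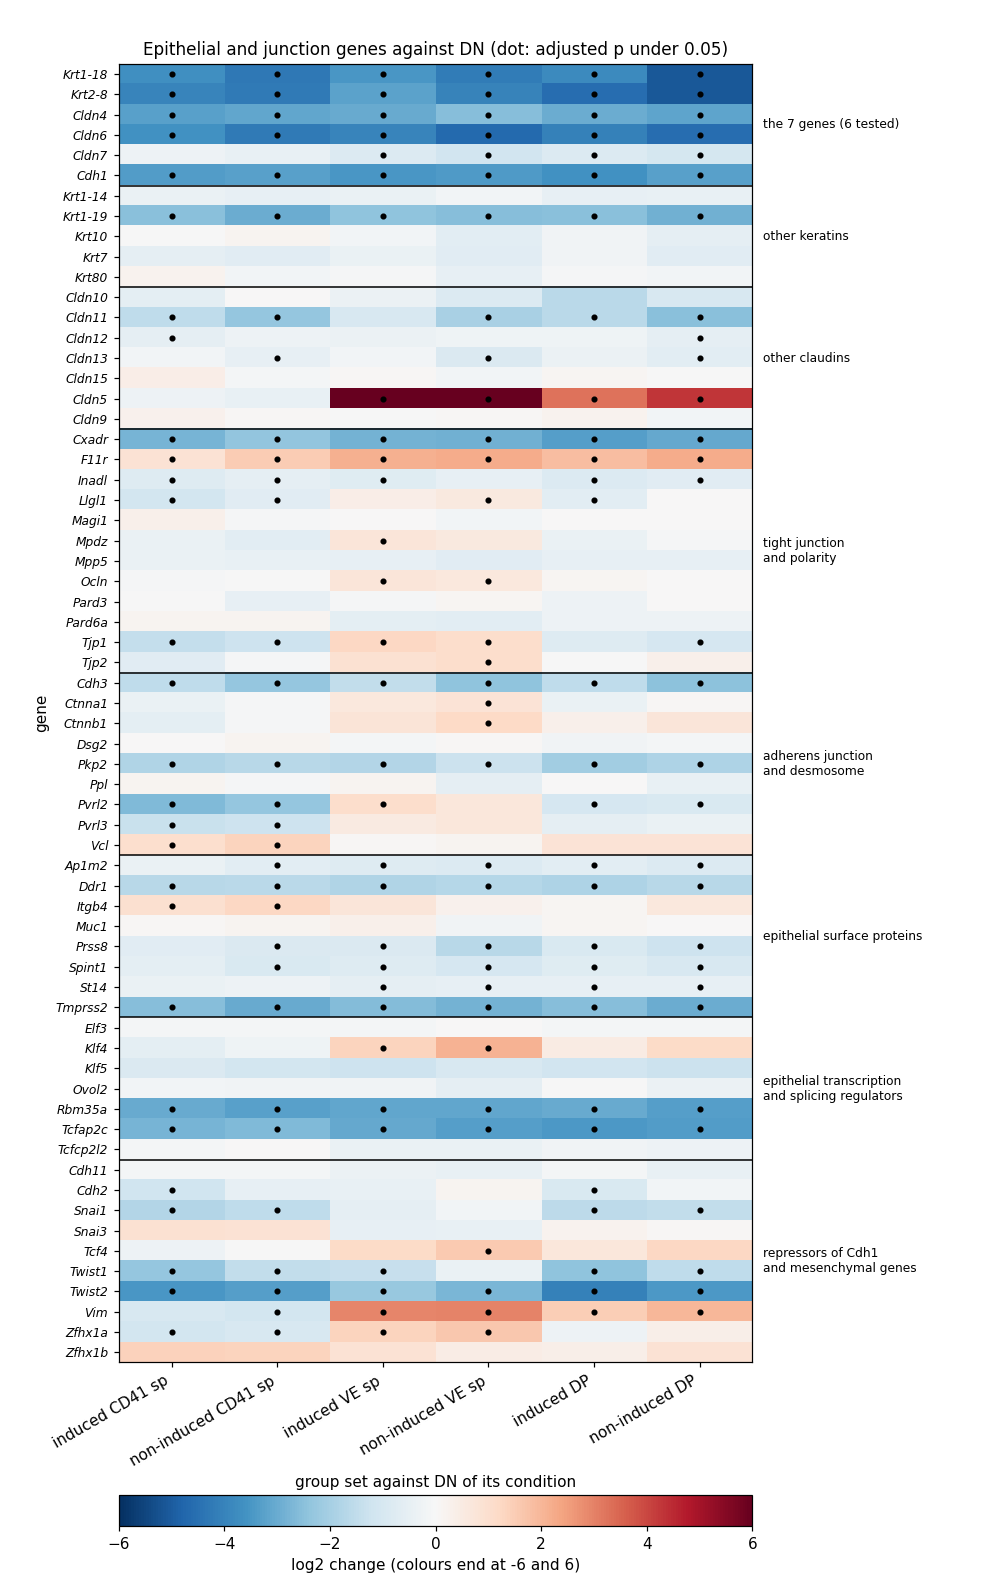
Log2 change against the DN cells of the same condition (colour, red higher and blue lower) for the 6 tested genes and for the tested genes of 7 epithelial and junction lists, with 1 gene left out (rows), in 6 groups (columns), with a dot where the limma adjusted p was under 0.05. Rows that are blue throughout, such as Krt1-19, Cxadr, Cdh3, Rbm35a and Tcfap2c, lie beside rows that change sign between CD41 sp and VE sp cells, such as Tjp1 and Zfhx1a.

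Markers of other cell types were read from the same arrays, and their part in the results was not tested. The 11 mesenchyme markers summed to 315 to 1161 in linear normalized intensity over the 18 CD41 sp, VE sp and DP arrays and to 2542 to 4102 over the 6 DN arrays. The 12 pluripotent cell markers summed to 572 to 1964 over the 18 arrays, the highest being VE sp arrays, and 1668 to 5081 over the DN arrays, and Nanog was detected on all 6 DN arrays and on none of the 18. In the induced condition the 22 endoderm markers did not have their highest sums in DN cells. There they summed to 666 to 785 over the CD41 sp, 3484 to 4285 over the VE sp, 954 to 1172 over the DP and 1837 to 3621 over the DN arrays. In the non-induced condition they summed to 698 to 961 over the CD41 sp, 2668 to 4551 over the VE sp, 1055 to 1620 over the DP and 3516 to 9952 over the DN arrays. Of 14 tested, 3 were lower and 3 higher in induced VE sp than in induced DN cells. In induced CD41 sp cells 5 were lower and 0 higher, and in induced DP cells 3 and 2. Without induction 10 were lower and 0 higher in CD41 sp, 6 and 2 in VE sp, and 9 and 2 in DP cells. Apoa1 was detected on all 3 arrays of the DN groups alone, and so passed the filter only where it is high. Sox17 and Trf were detected on all 3 arrays of the VE sp and DP groups alone. Afp, Apoa2, Lrp2 and Tcf2 were not detected anywhere. The 13 markers of surface ectoderm and trophoblast summed to 305 to 1432 over the 18 arrays and 925 to 1573 over the DN arrays, the highest of the 18 being VE sp arrays. Of these markers, Trp63 and Krt2-5, which mark stratified epithelia, were not detected on any array. Krt1-14 was detected on 3 induced DN, 2 non-induced DN and 1 non-induced VE sp array. Hand1 was detected on 2 induced and 3 non-induced DN arrays and on no others. Cdx2 averaged 8.77 over the DN and 5.11 over the 18 other arrays. Gata3 and Plac1 went otherwise, detected on all 3 arrays of each VE sp, DP and DN group. The 7 neural markers summed to 178 to 344 over the 18 arrays and 261 to 623 over the DN arrays, with Sox1, Pax6, Sox3 and Neurog2 not detected.

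Blood and endothelial markers ran otherwise. The 11 erythroid markers summed to 106622 to 141640 over the CD41 sp, 5058 to 11175 over the VE sp, 7293 to 22681 over the DP and 110349 to 168476 over the DN arrays. The 13 endothelial markers summed to 2605 to 4617 over the CD41 sp, 39839 to 56005 over the VE sp, 17773 to 30753 over the DP and 1853 to 3176 over the DN arrays. The 10 megakaryocyte and platelet markers summed to 8037 to 29314 over the CD41 sp and to 460 to 763 over the DN arrays. The RNA of DN cells, in which the keratins, Cldn4, Cldn6 and Cdh1 were high, thus held erythroid, mesenchyme, endoderm and pluripotent cell markers together.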

How the data were processed

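Expression was measured on 24 Illumina arrays. The deposited tables give raw, unnormalized probe intensity on a linear scale, per the file headers, and a detection p-value beside it, per the file headers. A second deposited table holds intensity values as processed by the authors, by a method not given in the sources used here, and was an alternative. Its array medians were 59.9 to 78.7.

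Background was removed with limma 3.58.1 (R 4.3.3) by the normal-exponential method, its control levels inferred from detection p-values. Values then received an offset of 16, quantile normalization and log2. A probe stayed in if all 3 arrays of some group detected it (12894 of 25697), and each symbol was represented by its brightest probe (9591 of 18120). RefSeq names of assembly GRCm38.p6 matched 9275 of these. The limma model had 8 group means and left 16 residual degrees of freedom. Where a group was undetected on every array, "at least" marks a bound, with that group set per array to the dimmest detected signal or to its own, whichever was higher.

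Replicate numbers recur in every group. Array deviations had r of 0.293 to 0.777 in 84 same-number pairs and of -0.626 to 0.0947 in 168 other pairs, so the numbers were taken to pair the arrays and the replicate block was run as an alternative. Others were no background correction, an offset of 50, median scaling, no filter, the mean over probes, only the groups compared, and leaving out arrays or whole replicates. The 7 genes, the lists and the naming rule were chosen with earlier results of these data known. By that rule up to 4 called genes with the largest change are named per list, plus the 8 genes most like the mean and 3 per gene. The code was checked on simulated data. No value column was left out (0). A gene that the rule names is not reported here.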

Additional observations from a re-analysis of the deposited data

Results flagged for a closer look

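The response of Krt1-18 to ICN1 induction ran in opposite directions in DP and DN cells. In DP cells the differences within replicates 1, 2 and 3 were 0.08, 0.71 and 1.07 on the log2 scale, a mean of 0.62. In DN cells they were -0.52, -1.11 and -0.37, a mean of -0.67. The means differ by 1.29. The F test over the 4 fractions gave an unadjusted p of 0.132 and an adjusted p of 1.00 by limma, so the difference did not pass it. The pattern of every difference up in 1 fraction and down in another also appeared in 2098 of the 9591 tested genes, or 21.9%. On the non-induced DP arrays Krt1-18 was detected in replicate 1 only.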

How the results depend on the processing

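Against DN, 5 or 6 of the 6 genes were called under every alternative run, and no called change reversed. Of 1722 recomputed changes of the 6 genes, 1685 kept their side of the threshold or moved by less than the spread between replicates, 16 lost a call, 13 gained one and 8 values that were not called moved by more than that spread. Between fractions, calls for VE sp against CD41 sp, DP against CD41 sp and DP against VE sp numbered 0, 0 and 0 with median scaling and again 0, 0 and 0 with the authors' processed values. The replicate block gave 3, 2 and 2, beside 62.4%, 38.3% and 41.7% of all tested genes, and changed no other call of the 6 genes. The authors' processed values with the replicate block, added after seeing the data, gave 2, 2 and 2, and 1 for induced against non-induced DN. In that setting 39.8% to 63.1% of all tested genes were called between fractions, and 5.07% for induced against non-induced DN. Leaving out arrays or replicates gave 0 to 0 calls in each induction comparison, their average and the F test. It gave 5 to 5 against DN for CD41 sp in both conditions, 5 to 6 for induced VE sp and DP, and 6 to 6 for non-induced VE sp and DP. Between fractions it gave 1 to 2 for VE sp against CD41 sp and 0 to 2 for the others. The calls lost against induced DN were those of Cldn7, with adjusted p of 0.0642 in VE sp and 0.136 in DP without replicate 1, and 0.0839 and 0.0535 without replicate 2. Of 2394 recomputed changes of 19 other named genes, 102 lost a call, 19 gained one and 0 reversed. List counts were recomputed with the block only. The fit with only the groups compared was not run for the average and the F test, which use all arrays. Of all tested genes 15.5% to 26.5% were called against DN, but 8.53% to 12.8% with median scaling, 7.1% to 12% with the authors' values and 28.6% to 46.3% with the block. Median scaling moved the median of all genes by over 0.1 in 6 of 14 comparisons, with the shift of largest size being -0.18 for induced against non-induced CD41 sp. The cause was not tested. Signal over background limits Cldn3 everywhere, Cldn4, Cldn6 and Cdh1 outside DN, and Cldn7 in VE sp and DP cells.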
